A study of Mus musculus with 56 samples.

Results

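Visceral adipose tissue (VAT) of mice fed only in daytime and of mice fed only at night was compared at matched hours without food. The comparison set daytime-restricted feeding (DRF) at zeitgeber time 16 (ZT16, with lights on at ZT0) against nighttime-restricted feeding (NRF, the control regimen) at ZT4. In each group, food had been withdrawn 4 h before. It drew on 8 of the 56 VAT libraries, 4 per group and each from a single mouse, taken by their labels for regimen and time. All mice were female C57BL/6J, 9 weeks old and kept on 12 h of light and 12 h of darkness. They had eaten chow freely before 7 days on the regimen, with food present in the light under DRF and in the dark under NRF. No allele, drug or other treatment was part of either group. The DRF mice were sampled in the dark and the NRF mice in the light, so that regimen, light phase and time of day changed together and cannot be told apart. The question was which genes hold the same level when only the hours since the last food are matched, and which do not.

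Adipocytes store triglyceride while food is present and release fatty acids when it is not, and insulin is the main switch between these states. They also hold a circadian clock. In it, ARNTL (BMAL1) with CLOCK or NPAS2 switches on the Per, Cry and Nr1d genes, PER and CRY proteins repress that activator, and NR1D1 and NR1D2 (REV-ERBs) repress Arntl. The PAR bZIP factors DBP, TEF and HLF carry the rhythm on to output genes. In liver such clocks follow meal times, and a clock that had followed meal times fully would stand at the same phase in DRF at ZT16 and in NRF at ZT4.

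The 8 libraries held 33352707 to 41023908 reads on genes. Levels are given as log2(CPM + 1), where CPM is the library-scaled read count after trimmed-mean scaling, and were compared within a gene only. Differences are DRF ZT16 minus NRF ZT4, each with its standard error (SE), and were tested with limma over 15559 genes with Benjamini-Hochberg adjustment and a threshold of 0.05. Markers of adipocytes were abundant in all 8 mice, with a mean level of 10.95 to 11.57 over 10 genes. Each group's mice were separated along the first principal component, which held 52.4% of the variance. NRF mouse 3 lay farthest out on it, at -37.9 against -9.98 to -27.9 for the other NRF mice, while all DRF mice lay above 0. No pair of libraries agreed within counting noise. In bulk tissue, fewer cells of a type and less RNA per cell cannot be told apart.

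Of the 15559 genes, 3009 passed the test (19.3%), 1411 higher (9.07%) and 1598 lower (10.3%) in DRF at ZT16, and 36.0% had an unadjusted p under 0.05. Scaling by total reads turned this split to 880 higher and 2751 lower, that is from 46.9% of calls higher to 24.2%. Without DRF mouse 1 the counts were 695 and 727. The lower genes numbered 1019 without DRF mouse 2, 1008 without DRF mouse 3, 1060 without NRF mouse 3 and 977 without NRF mouse 4. Without each mouse in turn, 1287 genes kept their call, 641 higher and 646 lower. Most differences were small. Only 281 genes (1.81%) passed with at least a 2-fold difference, 181 higher (1.16%) and 100 lower (0.643%). For 10645 genes (68.4%) the 95% interval of the difference lay wholly inside 1.5-fold either way on the CPM + 1 scale. Of these, 10039, or 64.5% of all genes tested, did not pass the test. A further 2511 genes (16.1%) did not pass but had an interval reaching beyond 1.5-fold, so that their likeness is not shown. The 1 added to CPM draws low values together, so for weakly expressed genes the bound holds for CPM + 1 and not for CPM. The count inside 1.5-fold was 9459 with a pseudocount of 0.5, 13339 with a pseudocount of 5 and 8326 with limma-voom.

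**Figure D1:**
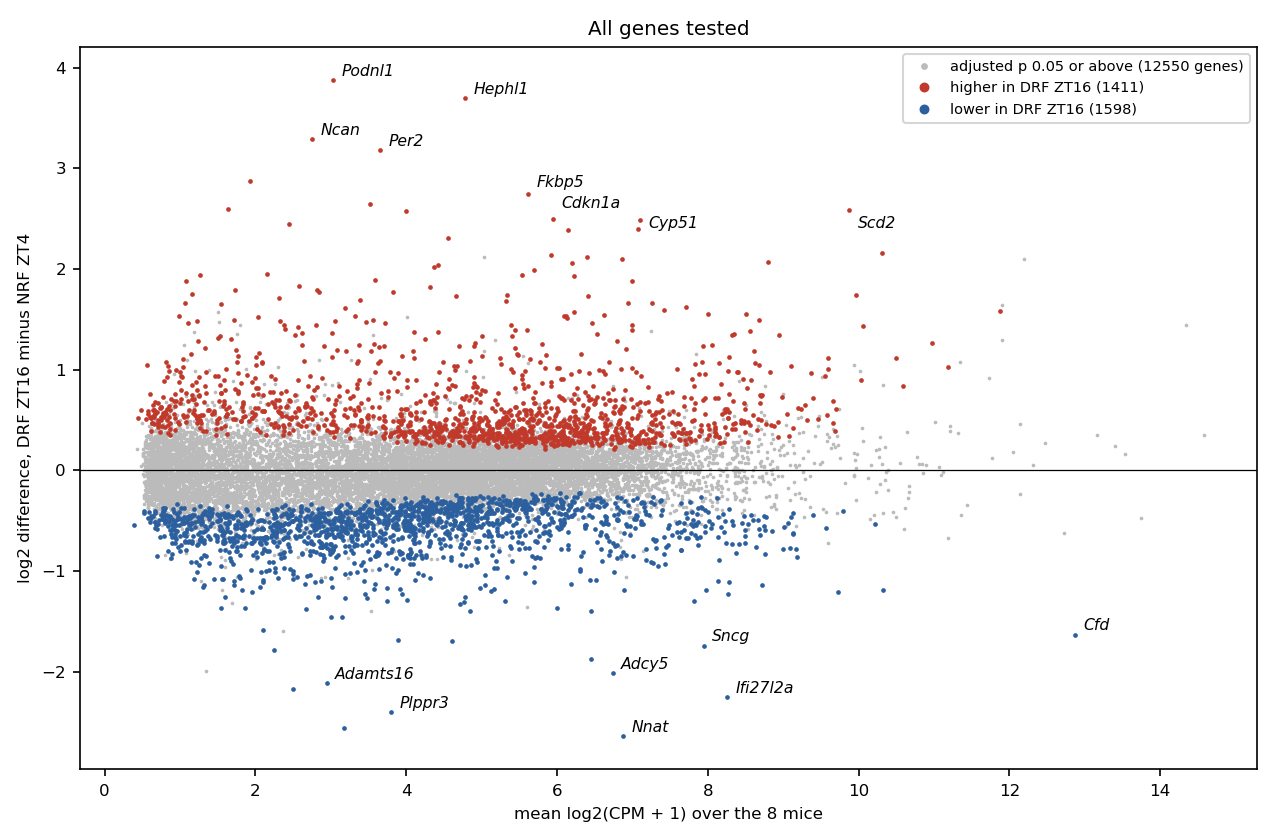
Each point is a gene; the x axis is the mean log2(CPM + 1) over the 8 mice and the y axis the log2 difference, DRF ZT16 minus NRF ZT4. The 1411 higher genes (red) reach further from 0 than the 1598 lower genes (blue), with Podnl1 at 3.88 and Nnat at -2.64 as the named extremes.

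DRF at ZT16 was not nearest to NRF at ZT4 among the NRF groups. The root mean square difference over all genes was 0.37 log2 units between these 2 groups. From DRF at ZT16 it was smaller to NRF at ZT24 (0.306), ZT0 (0.309), ZT20 (0.33) and ZT16 (0.344), and larger to NRF at ZT12 (0.383) and ZT8 (0.447). The nearest group of any kind was DRF at ZT20, at 0.212. These distances are descriptions without a test, and they also hold the spread between mice, whose median SD over genes was 0.136 in DRF at ZT16 and 0.164 in NRF at ZT4.

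Rises and falls were ranked among called genes whose groups did not overlap and whose higher mean level was at least 2. Predicted genes, clones and pseudogenes were left out. The largest rise on these conditions was that of Podnl1, which encodes a leucine-rich repeat protein of the extracellular matrix. Its level was 4.8, 4.76, 4.95 and 5.37 in the DRF mice and 1.61, 1.0, 0.74 and 1.03 in the NRF mice. The groups lay far apart, with a difference of 3.88 ± 0.19 (adjusted p = 1.19e-05). Hephl1, a ferroxidase related to hephaestin, was at 6.82, 6.14, 6.65 and 6.94 in DRF and at 4.15, 4.14, 1.19 and 2.25 in NRF. The NRF mice were themselves spread, and the difference was 3.7 ± 0.57 (adjusted p = 0.00346). Ncan, the proteoglycan neurocan, was higher by 3.29 ± 0.25 (adjusted p = 0.000178). The other rises among the 10 largest were Per2, BC049987 (2.88), Fkbp5, Pdzk1ip1 (2.65), Scd2, Cdkn1a and Cyp51, most of which return with their pathways.

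On the same conditions, the largest fall was that of Nnat, which encodes neuronatin, a small membrane protein of the endoplasmic reticulum. It stood at 5.64, 6.21, 5.08 and 5.31 in DRF and at 8.53, 6.34, 9.0 and 8.94 in NRF. NRF mouse 2 lay close to the DRF mice, and the difference was -2.64 ± 0.51 (adjusted p = 0.00813). Plppr3 differed by -2.4 ± 0.3 and Ifi27l2a, an interferon-inducible gene with similar family members, by -2.25 ± 0.27. The matrix proteases Adamts16 and Mmp9 differed by -2.11 and -1.69, and the adenylyl cyclase Adcy5 by -2.01. Spon1 (-1.87), the neutrophil serine protease gene Prtn3 (-1.78), the synuclein Sncg (-1.74) and the iron reductase Cybrd1 (-1.68) completed the 10. That the 4 values of each gene in DRF lay below all 4 in NRF was a condition of this ranking. Of all genes tested, 24.4% did not overlap, in either direction. Each of the 20 named rises and falls kept its call without any 1 mouse, which the condition favours.

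Some clock genes stood far apart at the matched hour, while 12 of the 23 tested did not pass. Of 23 tested members of the activator, repressor and PAR bZIP lists (the last with the competitor Nfil3), 8 were higher and 3 lower in DRF at ZT16, or 47.8% against 19.3% of all genes tested. Per2 (chr1:91415982-91459324, GRCm38), a core repressor, was at 5.71, 5.2, 4.98 and 5.09 in DRF and at 2.63, 1.27, 2.36 and 1.99 in NRF. All DRF mice lay well above all NRF mice, with a difference of 3.18 ± 0.26 (adjusted p = 0.000259), 9.07-fold on the CPM + 1 scale. Per3 was at 5.61, 5.52, 5.71 and 5.28 against 3.89, 3.57, 3.78 and 3.93. Its values were tight within each group, and the difference was 1.73 ± 0.11 (adjusted p = 7.17e-05). Per1, which also responds directly to glucocorticoids, was higher by 1.09 ± 0.28 (adjusted p = 0.0233). Its highest value, 6.13, was in DRF mouse 1, and without that mouse it did not pass (0.85, adjusted p = 0.0556).

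The cryptochromes, partners of the PER proteins, were also higher. Cry1 was at 4.32, 4.22, 3.98 and 4.11 in DRF against 3.02, 3.38, 3.18 and 2.75 in NRF, a difference of 1.07 ± 0.14 (adjusted p = 0.00193). Cry2 rose by 0.44 ± 0.11 (adjusted p = 0.0215), and without DRF mouse 1 by 0.43 (adjusted p = 0.0614). Nr1d1, the REV-ERBα gene, went the other way. It was at 5.71, 6.43, 6.39 and 6.54 in DRF and at 7.41, 7.16, 6.99 and 6.86 in NRF, a difference of -0.84 ± 0.18 (adjusted p = 0.0116). Its relative Nr1d2 did not overlap between the groups but did not pass (0.33 ± 0.1, adjusted p = 0.0508; adjusted p = 0.0472 without DRF mouse 1). The Per and Cry genes and Nr1d1, known targets of the same activator, thus differed in opposite directions.

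Among the activators, Arntl was at 4.08, 3.57, 3.24 and 3.41 in DRF and at 4.8, 4.87, 4.55 and 4.44 in NRF. The groups did not overlap, and the difference was -1.09 ± 0.17 (adjusted p = 0.00383). Npas2, the alternative partner of ARNTL, fell by 1.46 (SE 0.22, adjusted p = 0.00315). Clock, the usual partner, differed by 0.14 ± 0.084 (adjusted p = 0.243), and its interval of -0.042 to 0.33 lay inside 1.5-fold. Rora, an activator of Arntl, was higher by 0.55 ± 0.1 (adjusted p = 0.00585). Arntl2 (0.13) did not pass. Rorb and Ciart were too low to be tested.

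Other repressor genes did not pass. Csnk1d, a casein kinase that marks PER for degradation, was at 6.77 to 6.86 in DRF and at 6.75 to 6.89 in NRF, a difference of 0.0044 ± 0.066. Csnk1e differed by -0.012 ± 0.092. The ubiquitin ligase gene Fbxl21 (-0.32) and the repressors Bhlhe40 (0.32) and Bhlhe41 (0.33) did not pass either (adjusted p 0.0799 to 0.558).

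The PAR bZIP genes were higher, with Dbp as the exception. Tef was at 7.23, 7.07, 7.32 and 7.13 in DRF and at 5.72, 5.66, 5.83 and 5.72 in NRF. It had the tightest separation of the clock genes, 1.46 ± 0.077 (adjusted p = 1.19e-05). Hlf was higher by 1.19 ± 0.1 (adjusted p = 0.000264). Dbp was at 3.64, 4.34, 4.65 and 4.83 in DRF and at 3.49, 3.93, 3.69 and 3.78 in NRF. DRF mouse 1 lay among the NRF mice, and the difference of 0.64 ± 0.22 did not pass (adjusted p = 0.0644), while without that mouse it was 0.89 (adjusted p = 0.0107). Nfil3, which competes with the PAR factors for the same sites, differed by -0.37 ± 0.14 (adjusted p = 0.0918; -0.49 and adjusted p = 0.0452 without DRF mouse 1).

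**Figure D2:**
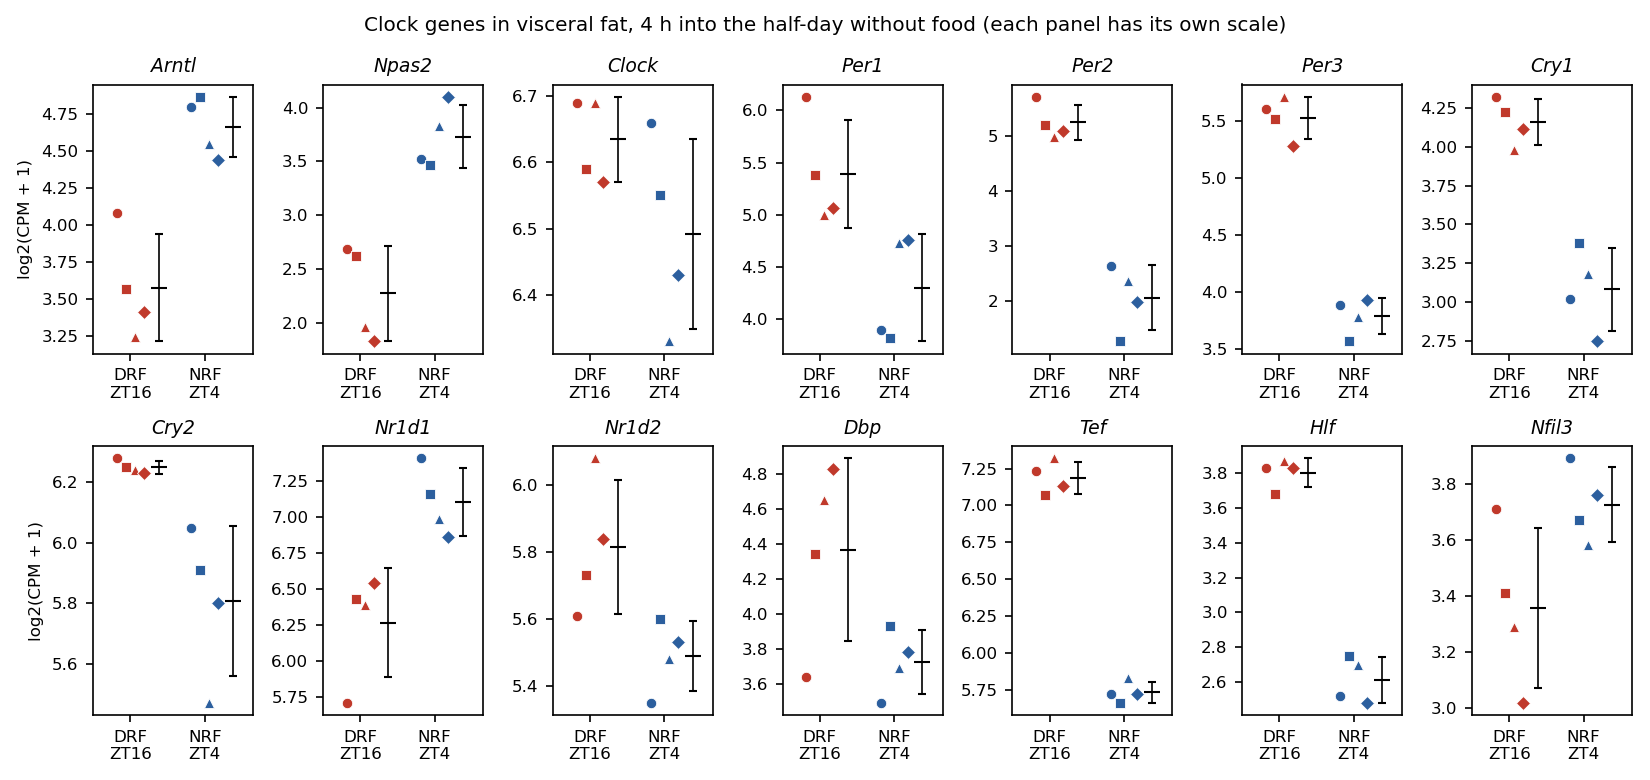
Levels in log2(CPM + 1) of 14 clock genes in each mouse (points; the shape is the mouse number, which pairs no mice), with the group mean and SD of 4 mice beside them. Arntl, Npas2 and Nr1d1 are lower in DRF ZT16 (red) than in NRF ZT4 (blue), the Per and Cry genes, Tef and Hlf are higher, and Clock, Dbp and Nfil3 overlap.

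Promoters of 6 clock genes that moved are shown, chosen because they hold letters of known clock sites. The moved genes Npas2, Rora and Hlf held none of the motifs named here, and Cry2, which held a variant E-box and a ROR site, is also not printed. The sequences are the 250 bases before a start site that RefSeq lists for the gene (GRCm38.p6), read 5′ to 3′ on the gene's strand, and the capitals mark matches on either strand to the motifs named here. CACGTG (the E-box, bound by CLOCK and ARNTL) was present in 4 of the 10 clock repressor promoters in the table and in 6.05% of the promoters of all 27025 genes in the table. CACGTT (a variant E-box) was in 3 of these 10 and in 3.93% of all. The D-box TTANGTAA, a PAR bZIP site, was in 1 of the 10 and in 2.11% of all, and TNGGTCA, a ROR and REV-ERB site, in 2 of the 10 and in 9.18% of all. Of the 4 repressor genes with CACGTG, Bhlhe41 did not pass and Ciart was not tested. TNGGTCA was also in 1 of 6 activator and 1 of 4 PAR bZIP promoters. A match describes the letters only, and the list did not hold Per2.
Per1 (chr11:69098699-69098948, + strand): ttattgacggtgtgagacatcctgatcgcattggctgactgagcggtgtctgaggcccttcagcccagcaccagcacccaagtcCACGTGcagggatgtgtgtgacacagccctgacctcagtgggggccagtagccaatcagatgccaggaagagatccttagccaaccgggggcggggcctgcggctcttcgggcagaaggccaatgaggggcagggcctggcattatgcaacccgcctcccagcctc
Per3 (chr4:151044666-151044915, - strand): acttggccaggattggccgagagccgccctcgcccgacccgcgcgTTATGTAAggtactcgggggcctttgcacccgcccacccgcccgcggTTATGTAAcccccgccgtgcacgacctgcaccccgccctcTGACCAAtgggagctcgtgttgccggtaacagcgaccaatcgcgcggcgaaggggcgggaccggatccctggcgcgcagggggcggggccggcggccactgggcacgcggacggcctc
Cry1 (chr10:85185055-85185304, - strand): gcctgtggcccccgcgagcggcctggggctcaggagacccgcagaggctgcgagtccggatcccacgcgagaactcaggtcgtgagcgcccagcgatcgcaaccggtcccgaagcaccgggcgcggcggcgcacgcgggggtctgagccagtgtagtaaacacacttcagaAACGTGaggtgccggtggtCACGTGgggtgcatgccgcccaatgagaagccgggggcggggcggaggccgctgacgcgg
Tef (chr15:81802423-81802672, + strand): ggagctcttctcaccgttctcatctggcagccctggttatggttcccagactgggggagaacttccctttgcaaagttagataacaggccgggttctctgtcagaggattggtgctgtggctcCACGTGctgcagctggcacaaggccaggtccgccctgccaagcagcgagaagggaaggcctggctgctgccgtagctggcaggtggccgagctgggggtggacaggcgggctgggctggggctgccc
Nr1d1 (chr11:98775378-98775627, - strand): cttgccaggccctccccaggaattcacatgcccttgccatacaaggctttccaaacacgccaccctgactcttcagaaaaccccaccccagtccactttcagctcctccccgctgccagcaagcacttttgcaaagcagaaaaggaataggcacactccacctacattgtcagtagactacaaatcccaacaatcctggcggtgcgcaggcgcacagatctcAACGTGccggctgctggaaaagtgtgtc
Arntl (chr7:113207215-113207464, + strand): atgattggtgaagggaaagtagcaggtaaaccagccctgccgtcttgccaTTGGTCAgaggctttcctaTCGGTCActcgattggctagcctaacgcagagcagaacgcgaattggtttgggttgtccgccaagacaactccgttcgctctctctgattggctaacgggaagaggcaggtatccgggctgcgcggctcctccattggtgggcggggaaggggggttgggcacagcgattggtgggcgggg
Per1 and Tef each held a single E-box, 166 and 127 bases before the start. Cry1 held an E-box 60 bases and a variant E-box 79 bases before it. Per3 held a pair of D-boxes at 158 and 205 bases and a ROR site at 118 bases, and Arntl a pair of ROR sites at 181 and 200 bases. Nr1d1, which was lower, held a variant E-box 28 bases before its start, so that the higher and the lower genes shared these letters.

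Of 14 tested output genes known to follow the clock, 10 were higher, against 9.07% of all genes, with none lower and a median difference of 0.68 against -0.013 over all genes. Of these, 9 kept their call without each mouse in turn. Cdkn1a, which encodes the cell cycle inhibitor p21, was at 7.72, 7.27, 6.67 and 7.15 in DRF and at 5.31, 4.22, 4.43 and 4.83 in NRF (2.5 ± 0.25, adjusted p = 0.000531). Fmo2, a flavin monooxygenase gene, was at 7.75, 7.43, 7.4 and 7.23 against 5.12, 5.54, 5.74 and 4.95 (2.12 ± 0.17, adjusted p = 0.000255). No DRF value of either gene overlapped with NRF. Wee1, a mitotic kinase, was higher by 1.2 ± 0.15 and Nampt, the rate-limiting enzyme of NAD salvage, by 0.94 ± 0.13. Por (0.009), Tspan4 (0.23) and Pdk4 (0.84, adjusted p = 0.0794) did not pass, although Tspan4 did without NRF mouse 2 (0.36, adjusted p = 0.0478).

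To place the clock genes in time, all time points were aligned to the hour when food was removed. Under NRF, Arntl fell from 4.67 ± 0.2 (mean ± SD, n = 4) at 4 h to 2.08 ± 0.23 at 8 h, and Dbp went from 3.72 ± 0.19 to 7.46 ± 0.3. Under DRF the same hours gave 3.57 ± 0.36 and 4.06 ± 0.2 for Arntl and 4.37 ± 0.53 and 5.06 ± 0.2 for Dbp. The NRF group was thus sampled on a steep slope of these genes and the DRF group on a shallow course. Per2 was at its lowest of the NRF groups at ZT4 (2.06 ± 0.59) and at its highest at ZT16 (6.59 ± 0.33), whereas its DRF means spanned 3.99 to 5.41.

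**Figure D3:**
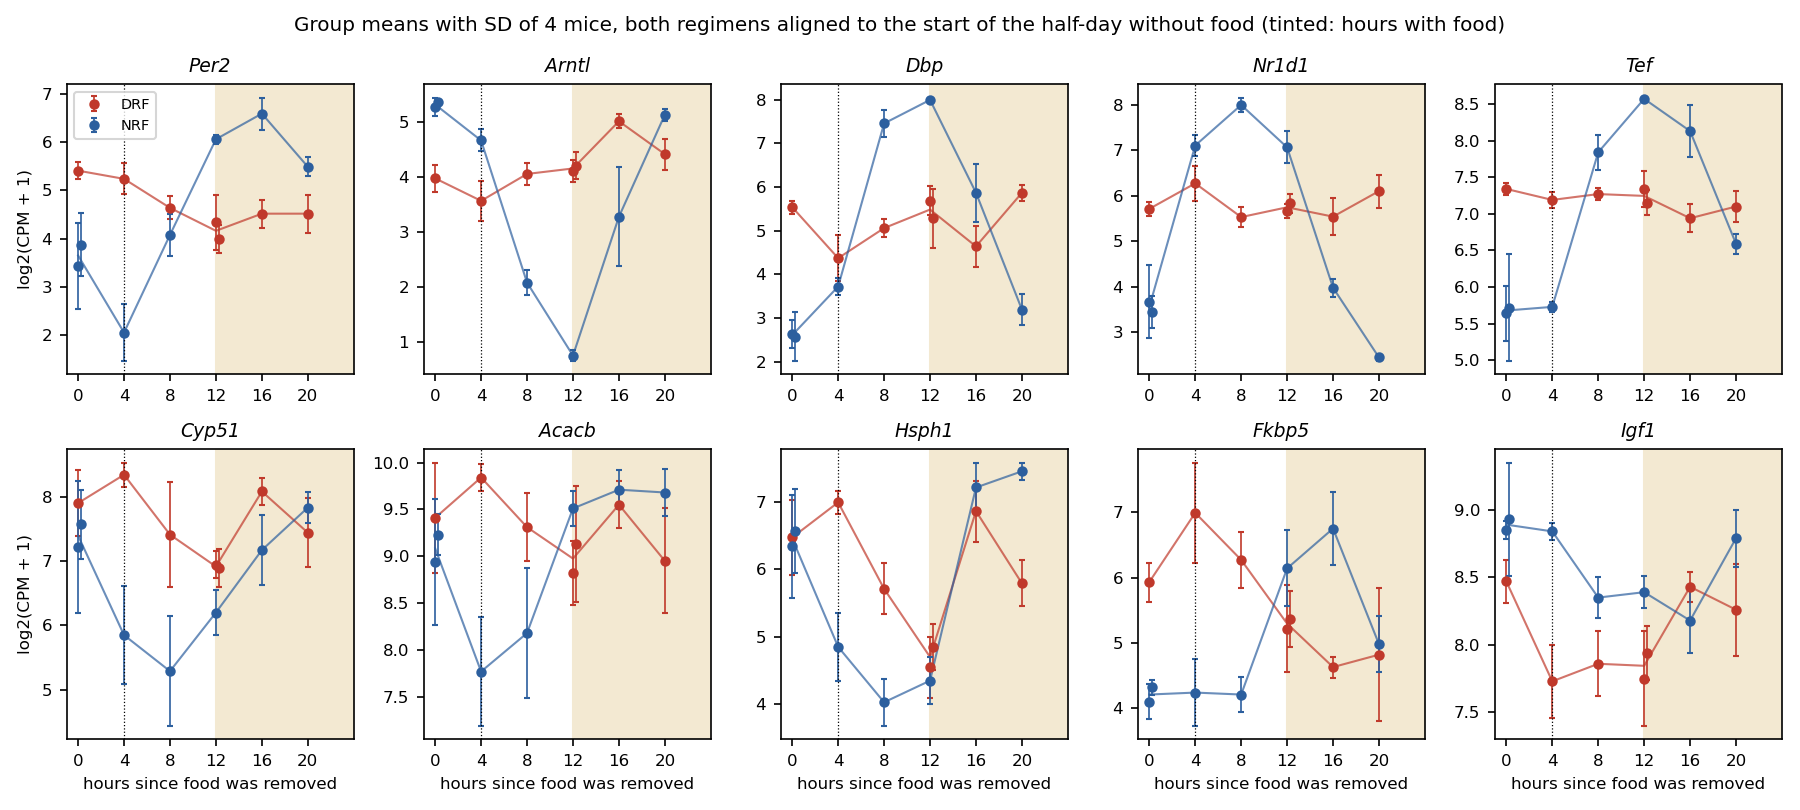
Group means with SD of 4 mice in log2(CPM + 1) against hours since food was removed, for 10 genes under DRF (red) and NRF (blue); the dotted line marks the 4-h groups compared here, the tint the hours with food, and the ZT0 and ZT24 groups, drawn side by side at the same hour, are joined by their mean. Arntl means span 0.75 to 5.37 under NRF and 3.57 to 5.02 under DRF, and Dbp means 2.57 to 8.0 and 4.37 to 5.87.

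Whether the difference changed between 4 h and 8 h into the fast was tested with other mice at 8 h. Their difference, DRF ZT20 minus NRF ZT8, was subtracted from that at 4 h. In both regimens the time of day also moved by 4 h, so that it cannot be told apart from the hour of the fast. Only 40 of 16339 genes passed this test (0.245%), 27 of them larger at 4 h (0.165%) and 13 smaller (0.0796%), and 1571 had an unadjusted p under 0.05 (9.62%). The count was 25 without DRF ZT16 mouse 1, 24 without DRF ZT16 mouse 3, 24 without NRF ZT4 mouse 4 and 19 without DRF ZT20 mouse 4. Of the 23 clock genes, 11 were among the 40. The contrast was 3.04 for Dbp, 2.62 for Per2, 2.15 for Per3, 2.12 for Hlf, 2.04 for Bhlhe41 and 2.03 for Tef. It was 1.86 for Nr1d2 and 1.62 for Nr1d1, and -3.08 for Arntl, -2.3 for Npas2 and -1.72 for Nfil3.

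Several clock genes had changed sign by 8 h. The difference for Arntl was -1.09 at 4 h and 1.99 at 8 h, that for Npas2 -1.46 and 0.84, and that for Tef 1.46 and -0.57. For Nr1d1 it was negative at both hours, -0.84 and -2.46, and for Dbp it was 0.64 and -2.4. Per2 stayed positive, at 3.18 and 0.56. Cry1, with 1.07 and 1.44, did not pass the test of the change (-0.36, adjusted p = 0.568). Outside the clock, the contrast reached 1.21 for the antilipolytic adenosine receptor gene Adora1, 1.35 for the fasting-responsive factor Klf15 and -1.45 for G0s2, which encodes an inhibitor of the lipase ATGL.

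Genes known to respond to glucocorticoids, hormones that rise before the active phase, were higher more often than lower. The list is not separate from the clock, since it shares Cdkn1a and Tsc22d3 with the output genes and Per1 with the repressors. Of 22 tested, 9 were higher, against 9.07% of all genes, and 1 lower, with a median of 0.5, and 4 kept the call without each mouse in turn. The list stood at 6.07 in DRF mouse 1, at 5.23 to 5.52 in the other DRF mice and at 4.69 to 5.06 in NRF, and without DRF mouse 1 the count of higher members was 4. Fkbp5, a co-chaperone of the glucocorticoid receptor, was at 7.85, 7.31, 6.08 and 6.7 in DRF and at 4.8, 3.75, 4.53 and 3.87 in NRF. DRF mouse 1 was again the highest, and the difference was 2.75 ± 0.35 (adjusted p = 0.00181). Hsd11b1, which makes active glucocorticoid inside the cell, was at 7.79, 7.14, 6.81 and 7.02 against 5.37, 5.37, 5.19 and 5.1 (1.93 ± 0.18, adjusted p = 0.000331). Tsc22d3 (GILZ) was higher by 1.57 ± 0.26. Klf15 passed with 0.76 (adjusted p = 0.0232) but not without DRF mouse 1 or 4 (adjusted p up to 0.0701). Sult1a1 (0.51), Angptl4 (0.45) and the receptor gene Nr3c1 itself (-0.13) did not pass.

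Heat shock genes, whose products fold proteins and which respond to temperature and feeding, were higher in 14 of 20 tested members, against 9.07% of all genes, with none lower and a median of 0.55, and 10 kept the call without each mouse in turn. The mean level of the list was 6.66 to 6.76 in DRF and 5.92 to 6.27 in NRF. Hsph1, an HSP110 chaperone, was at 6.98, 6.79, 7.21 and 7.0 in DRF and at 5.59, 4.71, 4.67 and 4.44 in NRF. Its difference was 2.14 ± 0.21 (adjusted p = 0.0005), with no overlap. Hspa8, the constitutive HSP70, was higher by 1.43 ± 0.18, Hspa4l by 1.4 ± 0.11 and Chordc1, an HSP90 partner, by 1.08 ± 0.15. Hsp90ab1 (0.42, adjusted p = 0.0502) and the mitochondrial chaperone Hspd1 (0.36, adjusted p = 0.0788) did not pass with all 8 mice. Hsp90ab1 passed without NRF mouse 1 (adjusted p = 0.0398) or NRF mouse 3 (adjusted p = 0.0496), and Hspd1 without NRF mouse 1 (adjusted p = 0.0377).

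Promoters of 2 members of this list, chosen after their values were seen, are shown because they hold the letters GAANNTTC, a part of the element that the heat shock factor HSF1 binds. GAANNTTC lay in 5 of the 16 heat shock promoters in the table and in 6.78% of all, and is in capitals. The longer heat shock element of 3 units lay in 1 of the 16 (Hspe1) and in 0.4% of all, and in neither promoter shown. Hsph1, Hspa4l and Chordc1, whose differences were larger, held no GAANNTTC in this window.
Hspb1 (chr5:135887669-135887918, + strand): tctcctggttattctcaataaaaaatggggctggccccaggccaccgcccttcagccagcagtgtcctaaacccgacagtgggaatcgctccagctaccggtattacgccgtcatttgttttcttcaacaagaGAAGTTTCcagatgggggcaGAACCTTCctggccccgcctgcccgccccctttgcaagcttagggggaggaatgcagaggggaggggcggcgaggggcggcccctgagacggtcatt
Dnaja1 (chr4:40722218-40722467, + strand): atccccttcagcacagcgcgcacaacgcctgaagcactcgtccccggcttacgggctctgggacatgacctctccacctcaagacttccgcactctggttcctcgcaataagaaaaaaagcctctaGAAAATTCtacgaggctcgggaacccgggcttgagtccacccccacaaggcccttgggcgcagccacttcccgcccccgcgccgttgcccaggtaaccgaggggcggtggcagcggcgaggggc
Hspb1 held 2 matches and was at 6.89, 6.98, 6.59 and 6.89 in DRF and at 6.43, 5.99, 6.4 and 5.86 in NRF, a difference of 0.67 ± 0.14 (adjusted p = 0.0113). Dnaja1 held 1 match and was higher by 0.96 ± 0.11 (adjusted p = 0.00144). Cirbp, an RNA-binding protein gene induced by cooling, went the other way. It was at 4.71, 4.62, 4.49 and 4.46 in DRF and at 5.45, 6.2, 5.4 and 5.93 in NRF, a difference of -1.18 ± 0.16 (adjusted p = 0.00246). Rbm3, the other cold-inducible gene tested, differed by -0.23 ± 0.15 (adjusted p = 0.278). Of 18 chaperones of the endoplasmic reticulum, 16 did not pass, so that 11.1% were called, no larger a share than the 19.3% of all genes. Hspa5 (BiP) was at 0.31 (adjusted p = 0.111, and 0.0309 without NRF mouse 1). The passing members were Dnajc3 (0.27), which lost its call without any 1 of 6 mice (adjusted p 0.0628 to 0.0966), and the stress factor Xbp1 (-0.52), which lost it without DRF mouse 1 or 3 (adjusted p 0.0667 and 0.0633).

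Cholesterol biosynthesis had the largest share of called members among the metabolic lists. Of 20 tested enzymes, 17 were higher in DRF at ZT16, against 9.07% of all genes, and none lower, with a median of 1.27, and 13 kept the call without each mouse in turn. Cyp51, lanosterol demethylase (chr5:4081145-4104746, GRCm38), was at 8.59, 8.13, 8.31 and 8.31 in DRF and at 6.47, 6.52, 5.03 and 5.39 in NRF. The groups were well apart, with a difference of 2.49 ± 0.3 (adjusted p = 0.00155). Lss, which closes the sterol rings, was at 7.97, 7.52, 7.93 and 8.2 against 6.51, 6.72, 4.5 and 5.5 (2.1 ± 0.4, adjusted p = 0.00798). Mvd, of the mevalonate branch, was higher by 1.94 ± 0.39 and squalene epoxidase (Sqle) by 1.68 ± 0.38. In each of these 4 genes NRF mice 3 and 4 were the lowest of the 8.

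Of the 3 enzymes that did not pass, Hmgcs1 and Mvk act early in the pathway. Hmgcs1 was at 7.35, 7.14, 7.6 and 7.67 in DRF and at 8.24, 7.81, 7.18 and 7.45 in NRF, a difference of -0.23 ± 0.2 (adjusted p = 0.452). Mvk differed by 0.33 ± 0.18 (adjusted p = 0.226). Of 15 genes of sterol sensing and uptake, 3 were higher and 1 lower, against 19.3% of all genes called. Insig1, which retains the SREBP processing complex, was higher by 1.55 ± 0.28 (adjusted p = 0.00696) and the HDL receptor Scarb1 by 0.41 ± 0.094. Nr1h2 (LXRβ) was lower (-0.31) but lost the call without any of DRF mice 1 and 3 and NRF mice 3 and 4 (adjusted p 0.0599 to 0.0753). The cholesterol exporter Abca1 did not pass (0.23, adjusted p = 0.0844).

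Fatty acid synthesis genes were alike in the DRF mice and spread widely in the NRF mice. Of 16 tested members of the de novo lipogenesis list, 9 were higher, against 9.07% of all genes, and none lower, with a median of 1.42. The list's mean level was 10.49, 10.31, 10.45 and 10.58 in DRF and 9.58, 10.01, 7.81 and 8.82 in NRF, with SDs of 0.11 and 0.96. The count was 4 or 5 without any 1 DRF mouse, 4 without NRF mouse 4, 7 without NRF mouse 3 and 13 without NRF mouse 2, and 4 members kept the call throughout. NRF mouse 2 was the closest to the DRF mice and NRF mouse 3 the farthest.

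Scd2, a fatty acid desaturase, was at 11.28, 10.84, 11.16 and 11.41 in DRF and at 9.56, 10.02, 6.48 and 8.26 in NRF (2.59 ± 0.61, adjusted p = 0.0174). Acacb, the acetyl-CoA carboxylase that controls fatty acid entry into mitochondria, was at 9.99, 9.76, 9.68 and 9.91 against 8.38, 8.13, 7.17 and 7.38 (2.07 ± 0.24, adjusted p = 0.00128). No NRF mouse reached a DRF value in these genes. The elongase Elovl6 (2.16) and Acss2 (1.74) passed with all 8 mice. Both lost the call without any 1 of DRF mice 1 to 4 or NRF mouse 4 (adjusted p 0.0555 to 0.0888). Acly was at 13.25, 12.99, 13.3 and 13.43 in DRF and at 12.08, 13.16, 8.48 and 10.86 in NRF, and its difference of 2.1 ± 0.79 did not pass (adjusted p = 0.0829). Fasn (1.44 ± 0.67, adjusted p = 0.149) and Me1 (1.64 ± 0.56, adjusted p = 0.0631) did not pass either. Without NRF mouse 2, Acly (adjusted p = 0.0208) and Me1 (adjusted p = 0.0198) passed. Acly, Fasn and Me1 rest on an exon length that could not be checked, and another length would rescale their levels and differences but not their order among mice. Srebf1, the gene of the lipogenic factor SREBP-1, differed by 0.26 ± 0.26 (adjusted p = 0.497), and Scd1 could not be tested.

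**Figure D4:**
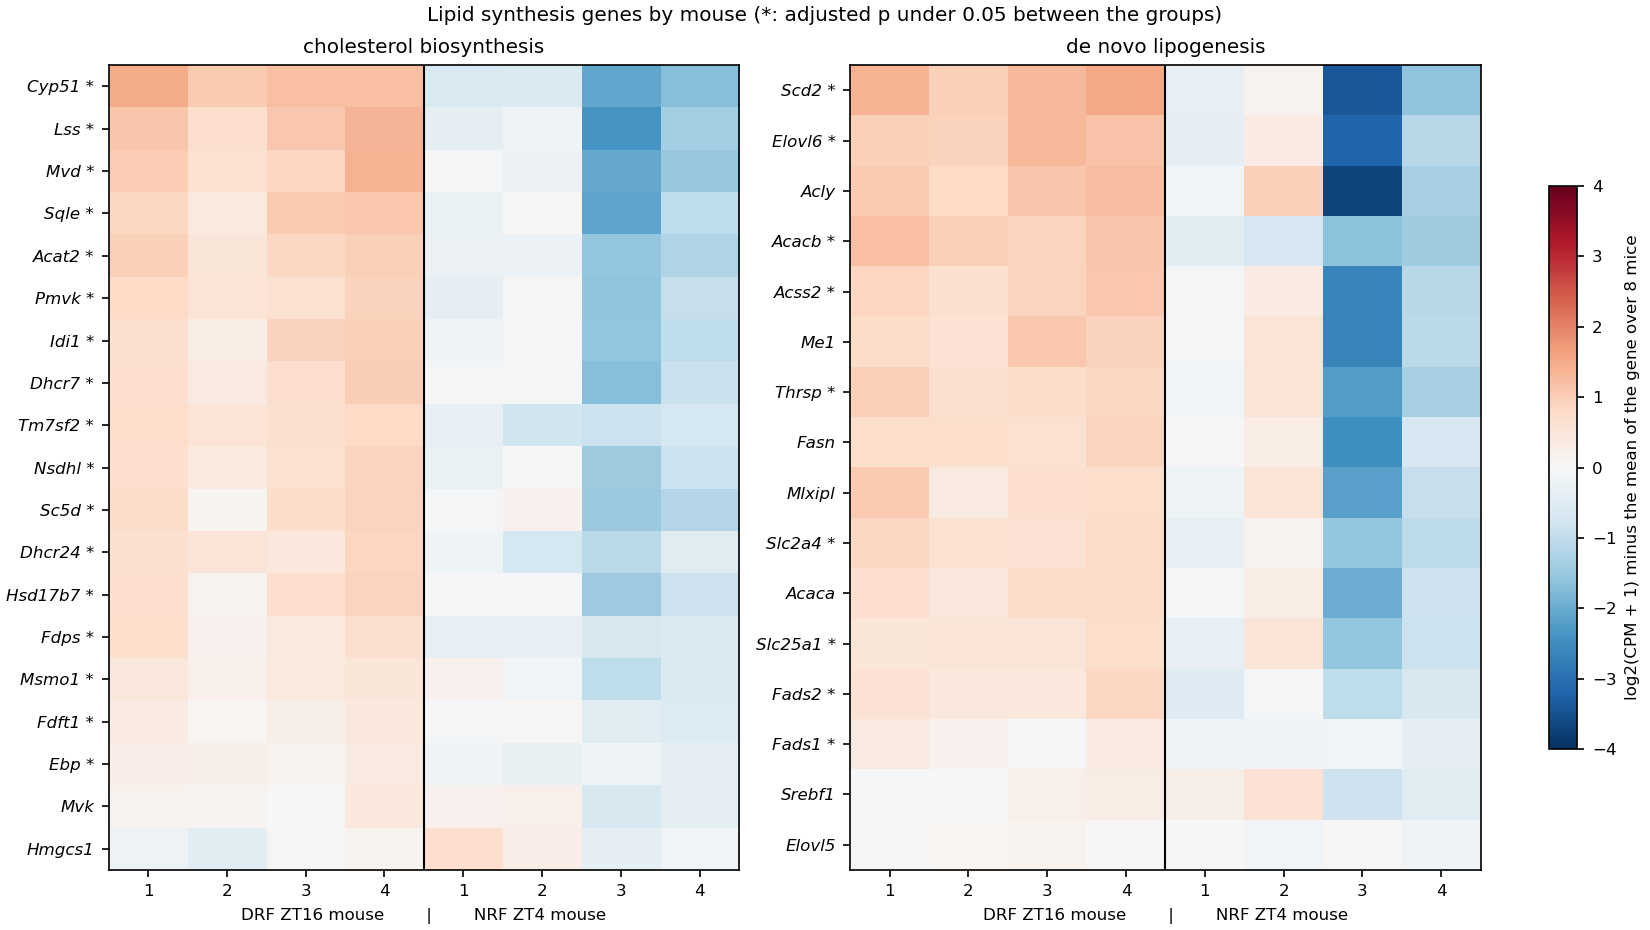
Each cell is the level of a gene in a mouse as log2(CPM + 1) minus the mean of that gene over the 8 mice, for 19 of the 20 cholesterol and all 16 lipogenesis genes tested; asterisks mark the 17 and 9 that passed. The DRF ZT16 mice (left of each line) are alike, whereas NRF ZT4 mouse 3 is lowest for most genes and mouse 2 is nearest to DRF in the lipogenesis genes.

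Of 15 triglyceride synthesis genes, 2 were higher and 1 lower, a share near the 19.3% of all genes. Mogat2, a monoacylglycerol acyltransferase, was at 5.63, 5.35, 5.87 and 5.96 in DRF and at 3.91, 4.7, 2.27 and 2.71 in NRF (2.31 ± 0.43, adjusted p = 0.00751), and the phosphatidate phosphatase Lpin1 was higher by 1.19 ± 0.23. Gpat3, which starts glycerolipid synthesis, differed by -0.9 ± 0.17 (adjusted p = 0.00829). Dgat2 (1.08, adjusted p = 0.15; 0.0409 without NRF mouse 2) and the glyceroneogenic gene Pck1 (-0.41, adjusted p = 0.397) did not pass. Among 14 genes of fatty acid uptake, 3 passed, a share near the 19.3% of all genes. All 3 were higher, or 21.4% against 9.07% of all genes, led by the carrier Fabp5 (1.49 ± 0.32, adjusted p = 0.0118). Acsl3 (0.9 ± 0.18) and Vldlr (0.42 ± 0.072) were the others. Lpl (0.35), Cd36 (0.12) and Acsl1 (0.052), the highest of this list, did not pass. Dgat2, Lpl and Cd36 rest on unchecked lengths.

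Of 20 lipolysis and lipid droplet genes, 4 were higher and 2 lower, so that 6 of 20 passed against 19.3% of all genes tested, with a median of 0.05. The count higher was 1 without DRF mouse 1 or DRF mouse 4 and 2 without DRF mouse 3 or NRF mouse 4. Adora1, whose receptor restrains lipolysis, was at 7.33, 7.13, 7.08 and 7.28 in DRF and at 6.2, 5.71, 5.86 and 5.61 in NRF (1.36 ± 0.12, adjusted p = 0.000305). G0s2 was at 7.58, 7.19, 7.26 and 7.57 against 8.18, 8.17, 7.9 and 8.02 (-0.67 ± 0.11, adjusted p = 0.00526), and Hilpda, also an inhibitor of ATGL, differed by -0.72 ± 0.12. Plin2 passed with 1.04 (adjusted p = 0.0429) but not without any 1 of 6 mice (adjusted p 0.0578 to 0.106). Pnpla2, which encodes ATGL, did not pass (0.44, interval -0.007 to 0.89), nor did Fabp4 (0.16, on an unchecked length), Cidec (-0.047) or the β3-adrenergic receptor Adrb3 (-0.021).

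Of 24 fatty acid oxidation genes, 8 were higher, against 9.07% of all genes, and none lower, with a median of 0.28, and 5 of the 24 had a difference below 0. The count was 4 without DRF mouse 1 or NRF mouse 4 and 5 without any 1 of the other DRF mice, and 4 kept the call throughout. It was 3 in a fit of all 56 libraries and 5 with scaling by total reads. Hadha and Hadhb, the subunits of the trifunctional protein, were higher by 0.5 ± 0.083 and 0.47 ± 0.078. Hadhb was at 8.62 to 8.72 in DRF and at 8.14 to 8.23 in NRF. Ppara, the fasting-responsive nuclear receptor, was higher by 0.53 ± 0.11 (adjusted p = 0.0123). Acadm (0.45) lost its call without DRF mouse 1 or 2 or NRF mouse 4 (adjusted p 0.0568 to 0.074).

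Of 27 insulin and FOXO-responsive genes, 2 were higher and 2 lower, no larger a share than the 19.3% of all genes, with a median of -0.04. Igf1, the growth factor gene, was at 7.42, 7.65, 7.8 and 8.06 in DRF and at 8.79, 8.8, 8.93 and 8.83 in NRF. It was lower in every DRF mouse (-1.11 ± 0.13, adjusted p = 0.00128). Trib3 (-0.64) and Trib1 (0.36) each lost the call without any 1 of 5 mice (adjusted p 0.0694 to 0.111). Txnip (0.2) and Akt2 (0.12) did not pass.

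Of 27 glycolysis and glycogen genes, 14 were higher, against 9.07% of all genes, and none lower, with a median of 0.61. The count was 7 without DRF mouse 1, 9 without DRF mouse 3 and 8 without NRF mouse 4, and 7 kept the call throughout. Slc2a4, the insulin-responsive transporter GLUT4, was at 9.38, 9.17, 9.15 and 9.33 in DRF and at 8.23, 8.7, 7.0 and 7.52 in NRF (1.39 ± 0.3, adjusted p = 0.0118). Pkm was higher by 1.12 ± 0.28, Gbe1 by 1.08 ± 0.34 and Aldoa by 1.03 ± 0.25. These calls were lost without some mice: DRF mice 1 and 3 and NRF mouse 4 for Pkm (adjusted p 0.0545 to 0.0568), DRF mouse 1 and NRF mouse 4 for Aldoa (adjusted p 0.0535 and 0.0509) and any 1 of 6 mice for Gbe1 (adjusted p 0.0747 to 0.112). Pfkfb3 (-0.11), Ldha (0.23) and Eno1 (0.61, adjusted p = 0.138), which has a near-identical copy in the genome, did not pass; Eno1 did without NRF mouse 2 (adjusted p = 0.0401).

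Skeletal muscle markers stood above the other mice in a pair of DRF libraries, and muscle is rich in glycolytic enzymes. Their mean level over 9 genes was 4.73 and 2.93 in DRF mice 2 and 3, 1.44 and 0.83 in DRF mice 1 and 4, and 1.26 to 1.46 in NRF. None of the 9 passed with limma, with Acta1 at 1.3 (adjusted p = 0.236) and Actn3 at 1.01 (adjusted p = 0.224). The glycolysis list stood at 7.36 and 7.57 in DRF mice 2 and 3, at 7.43 and 7.62 in DRF mice 1 and 4, and at 6.35 to 7.27 in NRF. The part of muscle RNA in the glycolysis result was not tested. In the pentose phosphate list, 3 of 11 were higher, against 9.07% of all genes, with G6pdx, the entry enzyme, at 0.73 ± 0.14 (adjusted p = 0.00864). Taldo1 (0.55) lost its call without any 1 of 6 mice (adjusted p 0.0618 to 0.0966).

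**Figure D5:**
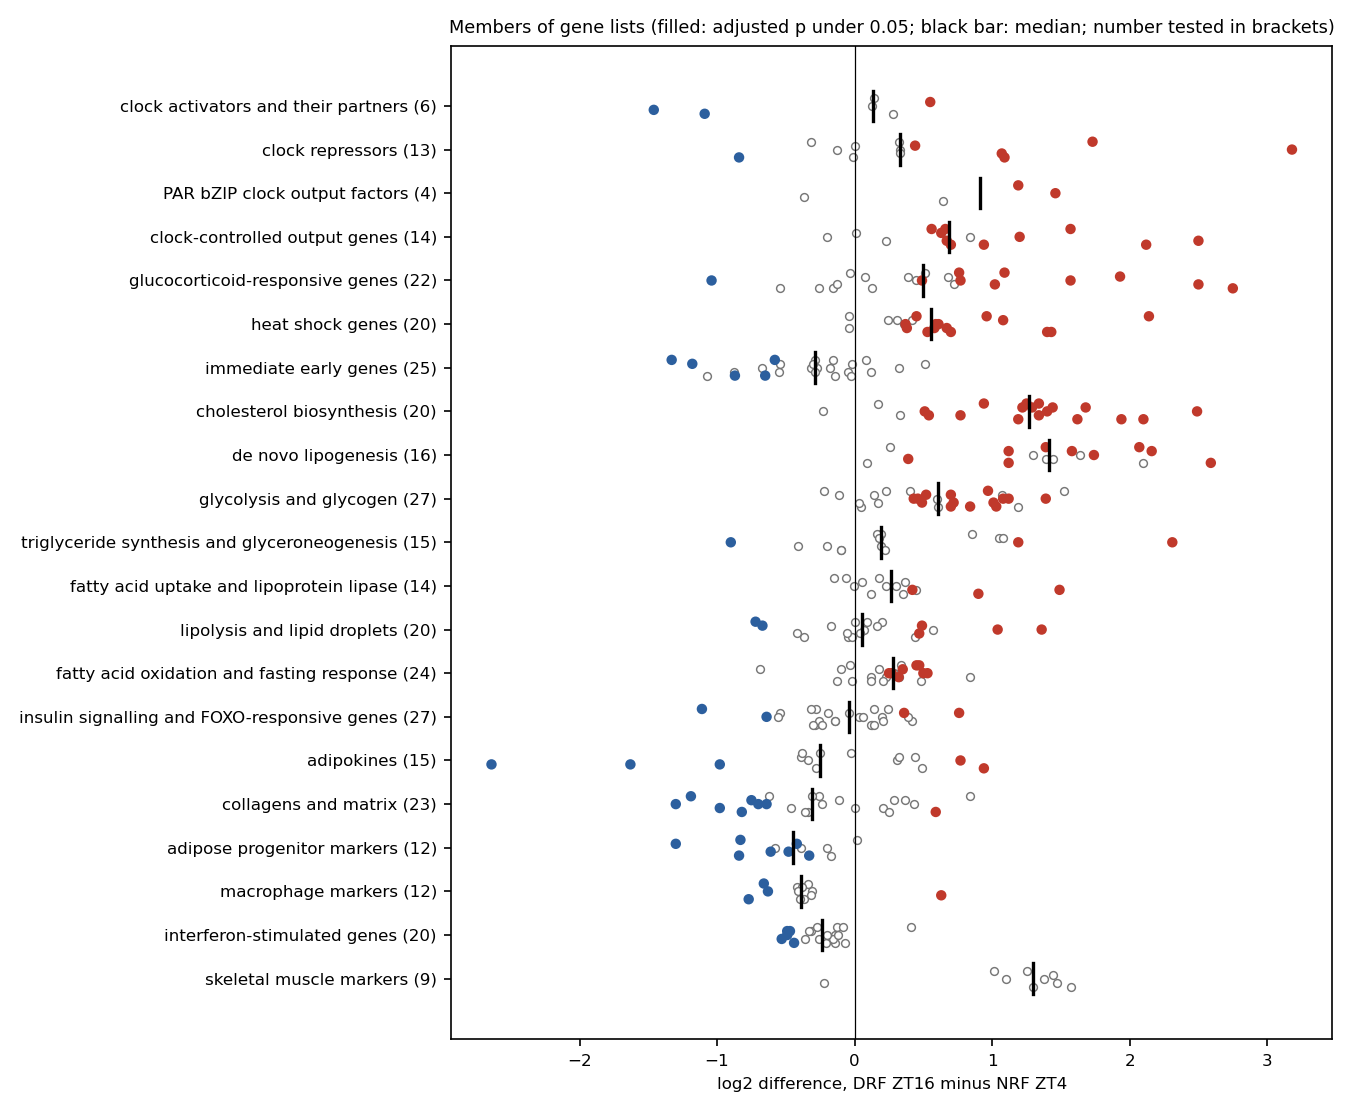
Each point is a tested member of the gene list named at left, placed by its log2 difference (DRF ZT16 minus NRF ZT4); filled points passed at an adjusted p under 0.05, red higher and blue lower, and black bars are medians. The lipogenesis and cholesterol lists lie to the right, with medians of 1.42 and 1.27, and the progenitor and macrophage markers to the left, at -0.45 and -0.39; the skeletal muscle median of 1.3 has no passing member.

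The list of adipokines, mostly secreted by adipose tissue, split into 2 higher and 3 lower of 15, against 19.3% of all genes called. It also held Nnat, the membrane protein gene described above, which was 1 of the 3 lower. Cfd, the complement factor adipsin, was at 11.91, 12.23, 12.01 and 12.07 in DRF and at 13.39, 13.76, 14.16 and 13.43 in NRF (-1.63 ± 0.31, adjusted p = 0.00794), on an exon length that could not be checked. Fst, the activin antagonist follistatin, was lower (-0.98 ± 0.17.) Adiponectin (Adipoq) did not overlap, with 11.21 to 11.32 in DRF and 11.34 to 11.88 in NRF, but did not pass (-0.34 ± 0.19, adjusted p = 0.211). Resistin (Retn) differed by -0.026 ± 0.18. The adipogenic factors Pparg (-0.24, adjusted p = 0.144) and Cebpa (-0.29, adjusted p = 0.152) did not pass; Pparg did without NRF mouse 4 (-0.36, adjusted p = 0.02). Of the adipocyte markers, Cfd was the only 1 of 10 to pass, no larger a share than the 19.3% of all genes. Their median was -0.03, with Car3 at -0.47 (adjusted p = 0.427), also on an unchecked length.

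Genes of the respiratory chain, proteasome, autophagy and ribosome biogenesis lists mostly differed little in size. Of 28 respiratory chain genes 6 passed, a share near the 19.3% of all genes. All 6 were higher, or 21.4% against 9.07% of all genes, with a median of 0.18. None kept the call throughout, with Ndufs1 (0.47) and Sdha (0.39) as examples (adjusted p up to 0.0663 and 0.0896 without 1 mouse). Of 26 proteasome genes 8 were higher, against 9.07% of all genes, with a median of 0.19, among them Psmd14 (0.5) and Psmc4 (0.46). Psmd14 lost its call when any of 4 of the 8 mice was left out (adjusted p 0.0523 to 0.0589) and Psmc4 without DRF mouse 1 or NRF mouse 4 (adjusted p 0.0522 to 0.0534). The proteasome count was 1 without DRF mouse 1, 2 without NRF mouse 4, 3 without DRF mouse 4 and 4 without DRF mouse 3 or NRF mouse 3. Ulk1 (0.27) and Atg9a (0.47 ± 0.079, adjusted p = 0.00482), which start autophagy, were among 5 of 19 higher autophagy genes (against 9.07% of all genes), and Ulk1 lost its call without any 1 of 6 mice (adjusted p 0.0585 to 0.0919). Ribosome biogenesis genes had 25 of 28 intervals inside 1.5-fold, with 5 lower and none higher, a called share near the 19.3% of all genes. The lower share was 17.9%, against 10.3% of all genes. The Krüppel-like factors Klf13 (0.59 ± 0.12, adjusted p = 0.0091) and Klf9 (0.49) were higher, Klf9 not without 4 of the mice (adjusted p 0.0503 to 0.0883). Elovl3, a fatty acid elongase gene of brown fat, was at 3.33, 3.3, 4.26 and 3.78 in DRF and at 0.86, 2.56, 0.67 and 0.77 in NRF (2.45 ± 0.39, adjusted p = 0.00395), and Cox7a1 was higher by 0.69 ± 0.15. They were the only passing members of 11 thermogenic genes (18.2%) and of 5 brown adipocyte markers (40.0%). The brown marker list stood at 3.89 and 4.52 in DRF mice 2 and 3, whose muscle markers were raised, and at 3.62 and 3.51 in DRF mice 1 and 4. In NRF it was at 2.79 to 3.73. The part of muscle RNA in this was not tested. Of all genes, 19.3% were called and 9.07% were higher. Ucp1, the uncoupling protein of brown fat, differed by -0.47 ± 0.6, Cidea by 0.57 ± 0.3 and Cox8b by -0.14 ± 0.14, and none of these passed (adjusted p 0.197 to 0.601).

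Immediate early genes, which respond within minutes to growth signals and to tissue handling, were called about as often as all genes, 5 of 25 against 19.3%. All 5 were lower, against 10.3% of all genes, with a median of -0.29. Egr1 was at 4.15, 4.23, 4.21 and 3.62 in DRF and at 4.93, 5.58, 5.2 and 5.83 in NRF (-1.33 ± 0.2, adjusted p = 0.00299). Nr4a1 (-1.18), Junb (-0.87) and Ier2 (-0.65) were also lower, Nr4a1 not without DRF mouse 1 (adjusted p = 0.0543). Klf6 (0.32), Jun (-0.019) and Fosl2 (-0.046) did not pass, although Klf6 did without NRF mouse 4 (adjusted p = 0.0343). The count was 3 without DRF mouse 1, 10 without NRF mouse 1 and 8 without NRF mouse 2.

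Of 23 collagen and matrix genes, 7 were lower in DRF, against 10.3% of all genes, 1 was higher and 15 did not pass, with a median of -0.31, and the count lower was 3 or 4 without any 1 of DRF mice 1 to 3 or NRF mice 3 and 4. Fbn1, the microfibril gene fibrillin, was at 6.94, 7.26, 7.03 and 7.45 in DRF and at 8.46, 8.07, 8.29 and 9.06 in NRF (-1.3 ± 0.19, adjusted p = 0.00311). Col3a1 was lower (-1.19 ± 0.2) and so was the protease Mmp2 (-0.98 ± 0.2), while Sparc (0.37) and the basement membrane gene Col4a1 (0.21) did not pass. Col1a1 (-0.82) lost its call without DRF mouse 1 or 3 (adjusted p 0.0698 and 0.0626).

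The progenitor markers, which share Fbn1 with the matrix list, moved with the matrix genes, and their part in that result was not tested. Of 12, 7 were lower, against 10.3% of all genes, and none higher, with a median of -0.45, and their mean level was 6.31 to 6.54 in DRF and 6.78 to 7.13 in NRF. The count was 3 without DRF mouse 1 or NRF mouse 4. Clec3b was lower (-0.61 ± 0.12.) Lum (-0.83) lost its call without DRF mouse 1 or NRF mouse 4 (adjusted p 0.0553 and 0.0514), and Wnt2 (-0.84) without any 1 of 4 mice (adjusted p 0.052 to 0.0676). Dcn (-0.58, adjusted p = 0.0577) passed only without NRF mouse 1 (adjusted p = 0.0202), and Pi16 differed by 0.021 ± 0.11.

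The macrophage list was at 5.61 to 5.96 in DRF and at 5.77 to 6.45 in NRF, with 3 of 12 lower, against 10.3% of all genes, 1 higher and a median of -0.39. The count lower was 1 without DRF mouse 1 or 2 or NRF mouse 2 or 4 and 9 without NRF mouse 1. Itgam was lower (-0.63 ± 0.14), and Lyz2 (-0.77) and Fcgr1 (-0.66) lost their calls without 6 and 5 of the mice in turn (adjusted p 0.0518 to 0.0881). Cd163, a scavenger receptor of resident macrophages, was higher by 0.63 ± 0.14 (adjusted p = 0.0128). C1qa (-0.32) and Csf1r (-0.34) did not pass, Csf1r except without NRF mouse 1 (adjusted p = 0.0254).

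B cell markers were at 1.96 to 2.46 in DRF and at 2.55 to 3.15 in NRF, with 3 of 8 lower, against 10.3% of all genes, and a median of -0.62. The count was 2 without DRF mouse 1 and 5 without DRF mouse 4. Ighm was at 6.29, 6.51, 6.18 and 6.22 in DRF and at 7.29, 7.44, 7.49 and 7.73 in NRF (-1.19 ± 0.11, adjusted p = 0.000305), and Ighd was lower (-0.6 ± 0.12.) Jchain (-1.29 ± 0.3) lost its call without DRF mouse 1 (adjusted p = 0.0515). Trac, a T cell receptor gene, was the exception among the lymphocyte genes, at 3.12, 3.35, 3.62 and 3.88 in DRF and 1.75, 2.42, 0.94 and 1.57 in NRF (1.83 ± 0.27, adjusted p = 0.00326), while the T and natural killer list of 9 had a median of -0.19.

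Of 20 interferon-stimulated genes, 5 were lower, against 10.3% of all genes, and none higher, with a median of -0.24. The count was 2 without DRF mouse 1 or NRF mouse 3 or 4 and 3 without DRF mouse 3 or 4 or NRF mouse 2. Isg15 was lower (-0.53 ± 0.12) and the antiviral tetherin gene Bst2 also (-0.47 ± 0.1). Irf7 (-0.49) and Oas1a (-0.49), which has close relatives beside it, lost their calls without 6 and 5 of the mice in turn (adjusted p 0.055 to 0.112). The part of macrophages and B cells, whose markers moved the same way, was not tested. Endothelial markers had a median of 0.17, with Flt1 higher by 0.51 ± 0.11, Pecam1 at 0.17 (adjusted p = 0.27) and Tek (-0.28) losing its call without any 1 of 6 mice (adjusted p 0.0726 to 0.111).

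The same regimens were also sampled at the exchanged hours, DRF at ZT4 and NRF at ZT16, both 4 h into the feeding window and in other mice. Subtracting that difference (DRF ZT4 minus NRF ZT16) from the fasting difference gives the change from ZT4 to ZT16 summed over both regimens. An effect of food that is the same in both regimens cancels in this sum, and one that differs between them does not. The sum therefore cannot tell the hour and light phase apart from such an effect. It passed for 3733 of 16189 genes (23.1%), 1722 higher at ZT16 (10.6%) and 2011 lower (12.4%), and for 16 of the 23 clock genes.

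Per2 had the largest named sum, 5.25 ± 0.35 (adjusted p = 1.17e-07). Its mean was 5.24 at ZT16 and 4.52 at ZT4 under DRF, and 6.59 and 2.06 under NRF, so that most of the sum came from NRF. Fkbp5 followed with 4.87, from means of 6.99 and 4.63 under DRF and of 6.75 and 4.24 under NRF. Fmo2 had 4.24, from 7.45 and 5.17 under DRF and 7.29 and 5.34 under NRF. In both genes the mean was higher at ZT16 than at ZT4 in each regimen. At the other end were Adamts16 with -3.64, Npas2 with -3.39 and Ngfr, a neurotrophin receptor, with -3.21. Ngfr overlapped between the fasting groups and lost its call between them without DRF mouse 1, 2 or 3 (adjusted p 0.054 to 0.0697).

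Podnl1, Nnat and Cyp51 had the same sign of DRF minus NRF in both pairs. Podnl1 was at 4.97 and 4.52 under DRF and at 1.69 and 1.1 under NRF at ZT16 and ZT4, so that DRF minus NRF was 3.88 in the fasting pair and 2.84 in the feeding pair. Nnat was lower under DRF in both pairs, at -2.64 and -2.23, and its sum did not pass (-0.41, adjusted p = 0.725). Cyp51 was higher under DRF in both, by 2.49 and 0.91 (sum 1.57, adjusted p = 0.0134). Acacb differed by 2.07 and -0.16 and Hsph1 by 2.14 and -0.34. In both genes NRF at ZT4 was the low group, with means of 7.77 and 4.85, against 9.55 to 9.84 and 6.86 to 7.21 in the other 3 groups. Of the 20 cholesterol and 16 lipogenesis genes, 4 and 5 passed the test of the sum, against 23.1% of all genes.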

How the data were processed

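Polyadenylated RNA of VAT was sequenced in 56 mice, 4 at each of 7 times in each regimen, and each library is 1 mouse. Per the study's methods and the submitters' processing notes, the authors aligned reads with HISAT2 2.0.5 and counted them with featureCounts 1.5.0-p3 on mm10. The kit does not keep strand, so reads shared by overlapping or antisense genes (Nr1d1 and Thra, for example) cannot be told apart. The deposited values, named TPM by the authors, behaved as log2(CPM + 1) divided by exon length and were treated as a score. Reads were recovered from them, and 99.9998% of 1262086 low values lay within 0.02 of whole numbers, against 4.0% by chance. Of 25939 genes, 880 took their length from the values, 20 were too abundant to check and 2 (Pcx and Scd1) were not tested.

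Genes at 0.5 CPM in 4 of the 8 libraries were compared on log2(CPM + 1) with limma 3.58.1 (R 4.3.3) without covariates, with Benjamini-Hochberg adjustment. Contrasts of differences used 16 libraries each. P-values set each difference against the spread between mice, which limma moderates by a trend over all genes tested. The fit was tested on simulated data, but no result of that test is given here. Named genes were the 10 largest non-overlapping rises and falls with a mean level of at least 2, the clock and cold-inducible lists, up to 4 passing and 3 non-passing members of each other list, and the 3 largest contrasts each way. The gene lists and the comparison were chosen with earlier results of these data known. Alternatives changed the filter, scaling, pseudocount, lengths, model and libraries, and each mouse was left out in turn. Some genes are not reported here.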

Additional observations from a re-analysis of the deposited data

Results flagged for a closer look

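The difference between DRF and NRF changed between 4 h and 8 h into the fast for a set of named genes, by a limma test of that change. The hour of the fast cannot be told apart in it from the time of day. The 4 h minus 8 h contrasts were 2.62 for Per2, 2.15 for Per3, 1.62 for Nr1d1, 1.86 for Nr1d2 and 2.04 for Bhlhe41. They were -3.08 for Arntl, -2.3 for Npas2, 3.04 for Dbp, 2.03 for Tef, 2.12 for Hlf and -1.72 for Nfil3. Outside the clock they were 1.21 for Adora1, -1.45 for G0s2 and 1.35 for Klf15.

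The difference between DRF and NRF was not the same at the exchanged hours (DRF ZT4 minus NRF ZT16), by the same kind of test. The contrast equals the change from ZT4 to ZT16 summed over both regimens, and the hour cannot be told apart in it from an effect of food that differs between the regimens. Among repressors it was 2.23 for Per1, 5.25 for Per2, 3.71 for Per3, 1.21 for Cry1, 0.81 for Cry2, -2.41 for Nr1d1 and 1.57 for Nr1d2. Among activators it was -2.84 for Arntl, -3.39 for Npas2 and 0.81 for Rora, and among PAR bZIP genes 1.88 for Dbp, 2.64 for Tef and 2.07 for Hlf, with -1.22 for their competitor Nfil3. It was 4.87 for Fkbp5, 4.24 for Fmo2, 3.05 for Tsc22d3, 2.13 for Cdkn1a, 1.58 for Klf15, 2.48 for Hsph1, 1.85 for Hspa8 and -1.0 for Cirbp. Metabolic and matrix genes gave 1.57 for Cyp51, 2.24 for Acacb, 1.34 for Adora1, -1.17 for G0s2, -1.35 for Igf1, 1.04 for Podnl1, -2.4 for Fbn1, -3.64 for Adamts16 and -3.21 for Ngfr.

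A single mouse stood apart from the other 3 of its group, by Dixon's criterion, in 15 of 354 groups examined (177 genes in 2 groups). Chance alone gives about 1 in 20 groups, or 17.7 here, so the number is no more than chance gives. In DRF these were mouse 1 for Adamts16 (1.13) and Isg15 (2.7), mouse 2 for Gbe1 (8.31), mouse 3 for Nr4a1 (3.5) and Col4a1 (10.06), and mouse 4 for Egr1 (3.62) and Eno1 (10.19). In NRF they were mouse 1 for Lpl (13.18) and Klf13 (6.15), mouse 2 for Elovl3 (2.56) and Sparc (10.61), and mouse 4 for Mmp9 (6.17), Pi16 (7.29), Pparg (7.38) and Cebpa (9.9). All are levels in log2(CPM + 1).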

How the results depend on the processing

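Of 1928 values of 177 named genes under 11 alternatives, 1818 kept direction and call, 87 no longer passed, 23 came to pass and 0 reversed. Scaling by total reads gave 880 higher and 2751 lower genes, and log2 of the deposited value plus 1 gave 974 and 823. Genes past 2-fold, 281 in the report, numbered 143 with a pseudocount of 5, 97 on the deposited scale and 572 with limma-voom, and those with intervals inside 1.5-fold 20406 without a filter. Counts within lists moved by over 1.5 times as follows. On the deposited scale the counts were cholesterol 9, lipogenesis 4, glycolysis 9, glucocorticoid 4, clock repressors 3, lipolysis 2 and proteasome 5 higher, and immediate early 2, matrix 3, progenitor 2, interferon 1 and macrophage 1 lower. Without a filter they were lipogenesis 5, lipolysis 2, matrix 4, interferon 2 and macrophage 1. Total-read scaling gave fatty acid oxidation 5, macrophage 6 and proteasome 4, and all 56 libraries fatty acid oxidation 3 and interferon 1. Reference lengths gave lipogenesis 4, in a fit that left out genes whose length was taken from the values or could not be checked. The cause of these moves was otherwise not tested. Leaving out 1 mouse gave 695 to 1456 higher and 727 to 1740 lower genes, 202 to 354 past 2-fold, 9664 to 10680 inside 1.5-fold, 19 (without DRF ZT20 mouse 4) to 59 for 4 h against 8 h and 2821 to 4070 for the summed change from ZT4 to ZT16. Mouse numbers did not pair the mice (same-number correlations 0.257, -0.233, -0.145 and -0.0816). A replicate block gave 956 higher and 1171 lower genes, 278 past 2-fold, 36 for 4 h against 8 h and 3571 for the summed change from ZT4 to ZT16, with fatty acid oxidation at 4, lipolysis at 2 and proteasome at 4. With 4 mice a group, the 2511 genes whose intervals reached beyond 1.5-fold cannot be called alike or different.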

Other observations

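Genes of amino acid metabolism, not described above, were mixed. Of 19 tested members of the ATF4 target list, 3 were higher and 4 lower in DRF at ZT16, against 19.3% of all genes called, with a median of -0.11. The proline synthesis genes Pycr1 and Aldh18a1 differed by -0.87 ± 0.18 and -0.74 ± 0.14, while Psph of serine synthesis and Mthfd2 of mitochondrial folate metabolism differed by 0.95 ± 0.25 and 0.62 ± 0.12. In branched-chain amino acid catabolism, 3 of 18 passed, no larger a share than the 19.3% of all genes. All 3 were higher, or 16.7% against 9.07% of all genes, among them Pcca at 0.48 ± 0.084. Of the 18 intervals, 15 lay inside 1.5-fold.

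Among chemokine and acute-phase genes, 1 of 15 was higher, Orm1 (0.98 ± 0.13), and 1 lower, Cxcl12 (-0.61 ± 0.16). The Cxcl12 call was not kept without each mouse in turn. Proliferation genes had 2 higher and 1 lower of 23, and in both lists the share was below the 19.3% of all genes. Of 4 ovary markers tested, Star (-0.64 ± 0.18) and Inha (-0.41 ± 0.11) were lower, against 10.3% of all genes. Of 10 mesothelial markers Wt1 (-0.42 ± 0.1) was lower, a share near that 10.3%. None of these ovary and mesothelial calls was kept without each mouse in turn. These genes were named after their values were seen.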
